A study of Mus musculus with 4 samples.

Results

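Ubd encodes FAT10, a small protein made of a pair of ubiquitin-like domains in a row that is joined to other proteins and sends them to the proteasome. Its transcript was followed across the 4 microarrays of a study of epithelial cells freshly isolated from mouse small intestine. The gene was taken by name from the non-control probes of the arrays, and 1 of 41174 probes, or 1 of 27734 named genes, was a match. Ubd was chosen by its signal on these same arrays, which differed between the genotypes, so its levels are given as a description without a test. The tests below concern other genes only.

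The comparison was between WT mice (littermates, genotype given as wild type) and IKKb(EE)IEC mice, with 2 biological replicates of each and 1 array per replicate. IKKb(EE) is a form of the kinase IKKb that is always active, and IEC stands for the intestinal epithelial cells in which it is made. The sources used here do not state the promoter of the transgene, the age of the mice or the number of mice behind a sample. No further treatment is named for either group. All 15 defining markers of small intestinal epithelium that were looked up, among them Epcam, Vil1, Cdx2 and Fabp2, were well above background on every array. Between genotypes Fabp2, Fabp1 and Lct fell and Anpep rose (26.7% called, against 15.2% of all genes), and 11 did not pass. The median log2 difference of the list was 0.05. Its summed scaled signal was 13600 to 14400 in WT and 7120 to 7280 in IKKb(EE)IEC. This linear sum is weighted to the brightest genes, in WT Fabp2 and Fabp1, both of which fell. Each of the 4 calls ended without either IKKb(EE)IEC array, and those of Fabp1, Fabp2 and Lct also under quantile normalization. The part of this difference in the Ubd level was not tested.

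FAT10 is activated by the E1 enzyme UBA6, passed to the E2 enzyme UBE2Z and bound by NUB1, which speeds the breakdown of FAT10 and its conjugates. Unlike most ubiquitin-like proteins it is inducible. Tumour necrosis factor (TNF), which acts through NF-kB, and interferon-gamma raise its transcript together, and IKKb is the kinase that releases NF-kB. In the normal body the transcript is most abundant in lymphoid organs, in mature dendritic and B cells, and it rises in inflamed epithelia.

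The Ubd gene lies on the plus strand at chr17:37193892-37196101 of GRCm38.p6 (RefSeq), in the outer part of the major histocompatibility complex. The array's single Ubd probe, A_52_P338066, was designed on transcript NM_023137 and lies at chr17:36803796-36803855 of the older mm8 build given in the files. The exon that holds it was not looked up. The 250 bases ahead of the start of Ubd (chr17:37193642-37193891, GRCm38.p6, plus strand, from RefSeq) are shown because the kinase under study acts through NF-kB, whose DNA motif is known. The capitals mark the match to that motif.

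Ubd promoter: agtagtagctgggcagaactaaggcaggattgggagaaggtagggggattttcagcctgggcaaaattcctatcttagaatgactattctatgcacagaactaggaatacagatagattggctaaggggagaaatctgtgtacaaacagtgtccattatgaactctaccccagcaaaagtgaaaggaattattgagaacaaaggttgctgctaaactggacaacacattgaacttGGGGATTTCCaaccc

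The motif searched on both strands was GGG, any 5 bases, then CC, and its 1 match, GGGGATTTCC, lay 15 to 6 bases ahead of the start (chr17:37193877-37193886). This loose form was found in 45.8% of 32851 mouse promoter windows of the same length. A narrower form (GGG, any 2 bases, then TTTCC), which was written down after the match in Ubd had been seen and which overlaps the first, was found in 1.41% of them. The interferon-related motifs TTCNNNGAA (the gamma-activated site, in 7.02% of promoters) and GAAA, any 2 bases, GAAA (the core of the interferon-stimulated response element, in 2.98%) had no match in this window.

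The Ubd spot was bright on both IKKb(EE)IEC arrays, and lower and unequal on the WT arrays. Its background-subtracted signal, in scanner units, was 566 ± 57.0 in WT replicate 1 and 4871 ± 487 in WT replicate 2, where the error is that of the scanner software for 1 spot. In IKKb(EE)IEC it was 125003 ± 12500 in replicate 1 and 119203 ± 11920 in replicate 2. The genotypes did not overlap, and the WT arrays lay nearly a power of 10 apart while the IKKb(EE)IEC arrays were within the software's error of each other. The mean pixel signal was 18.0 and 149.9 times the local background in WT and 3996 and 4436 times in IKKb(EE)IEC, so that Ubd was measured above background on all 4 arrays.

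**Figure D1:**
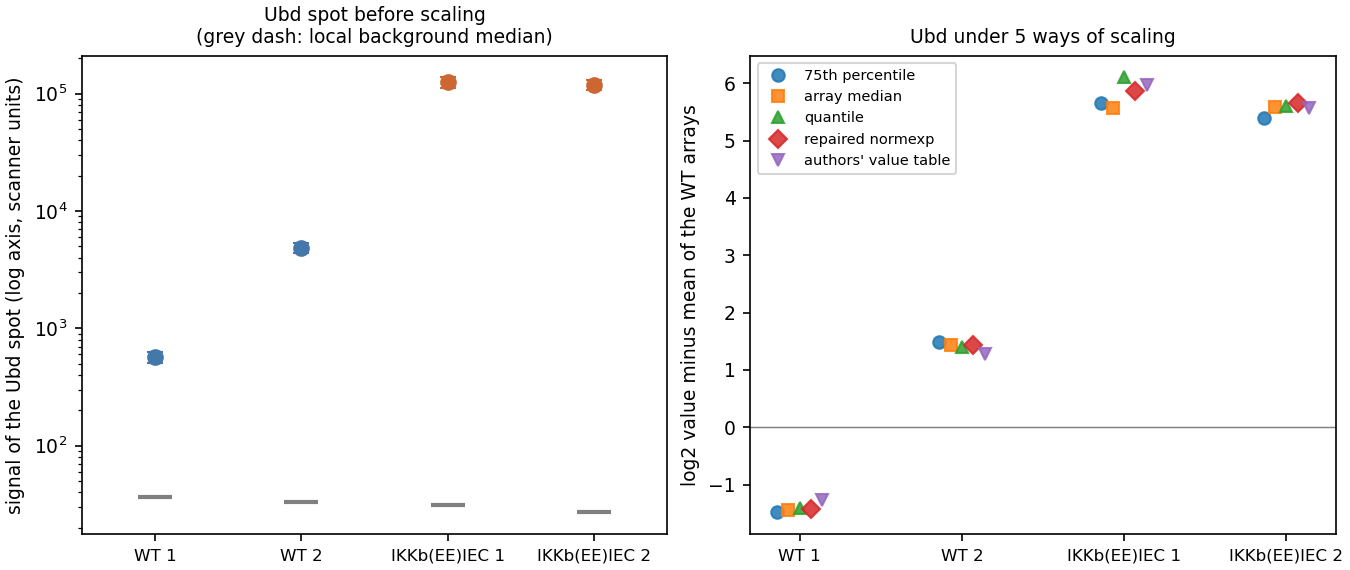
Left, the processed signal of the Ubd spot on each array (points, log axis, scanner units; bars are the error of the scanner software) with the median of the local background as a grey dash: the signal goes from 566 and 4871 in WT to 125003 and 119203 in IKKb(EE)IEC. Right, the same spot as log2 value minus the mean of the 2 WT arrays under 5 ways of scaling, in which WT replicate 1 is lowest, WT replicate 2 next, and both IKKb(EE)IEC arrays are highest every time.

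The spot was not saturated on any array. On both IKKb(EE)IEC arrays its value came from the low-gain scan, scaled up by the software, whereas both WT values came from the high-gain scan. Between 241 and 359 spots per array were read at low gain, and the lowest such signals lay between 16744 and 17975. The local background around the Ubd spot also carried a non-uniformity flag on both IKKb(EE)IEC arrays, at a background of 31.5 and 27, far below the spot. The part of the scan gain in the difference was not tested.

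After each array was shifted by the 75th percentile of its signal (normalized log2 signal), Ubd stood at 3.23 in WT replicate 1, 6.20 in WT replicate 2, 10.37 in IKKb(EE)IEC replicate 1 and 10.11 in IKKb(EE)IEC replicate 2. The order of the samples was thus WT replicate 1, WT replicate 2 and then the IKKb(EE)IEC pair, whose members differed by 0.26. The group values were 4.72 ± 2.10 in WT and 10.24 ± 0.18 in IKKb(EE)IEC (SD, n = 2 each). The mean difference was 5.52 on the log2 scale, or 45.9-fold.

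That mean stands between values that depend on which WT sample is used. Against WT replicate 1 the IKKb(EE)IEC samples were 141-fold and 118-fold higher, and against WT replicate 2 they were 17.9-fold and 15-fold higher. Without WT replicate 1 the log2 difference was 4.04 and without WT replicate 2 it was 7.01, while leaving out either IKKb(EE)IEC array gave 5.39 and 5.65. In the authors' value table, whose scaling between arrays is not stated, Ubd read 826 and 4817 in WT, against 124654 and 94101 in IKKb(EE)IEC, a log2 difference of 5.76. Median scaling, quantile normalization and 2 forms of normexp background correction gave 5.28 to 5.85. Under plain normexp the IKKb(EE)IEC arrays were less close, at 9.56 and 7.63.

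Among all 12444 genes that were well above background on at least 2 arrays, limma called 998 higher in IKKb(EE)IEC (8.02%) and 898 lower (7.22%), together 15.2%, with an adjusted p below 0.05 as the threshold. The share of higher genes among the calls was 52.6%, against 63.2% with median scaling and 72.0% with a repaired normexp correction. Falls outnumbered rises among probes well above background on all 4 arrays (772 higher and 1158 lower) and without WT replicate 1 (42.6% higher). The median log2 difference of all genes was -0.12. Ubd ranked 7 from the top in log2 difference, and among the 10301 genes whose probe was well above background on all 4 arrays only 1, the chemokine gene Ccl20, had a larger rise. These ranks come from the contrast for which Ubd was picked and are descriptive.

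Genotype and slide position cannot be told apart, since the 4 arrays lie on 1 slide with both WT samples ahead of both IKKb(EE)IEC samples. In RNA of a mixed isolate, more cells that carry a transcript and more transcript per cell cannot be told apart either. The IKKb(EE)IEC arrays were close to each other throughout, with 0.458% of genes at least 2-fold apart (57 of 12441), whereas between the WT arrays 302 genes were at least 2-fold higher in replicate 2 (2.43%) and 352 at least 2-fold lower (2.83%).

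Most genes that handle FAT10 did not pass the test between genotypes. Of 18 genes for enzymes and partners of FAT10, 14 were measured, 1 rose, none fell and 13 did not pass, a share of 7.14% called against 15.2% of all genes. Their median log2 difference was -0.07. The gene of the E2 enzyme, Ube2z, had values of -0.32 and -0.50 in WT, against -0.35 and -0.27 in IKKb(EE)IEC (difference 0.10 ± 0.17, SE, adjusted p by limma = 0.683), a set of levels that overlapped between genotypes. The gene of the E1 enzyme, Uba6, and that of the deacetylase HDAC6, which carries FAT10 conjugates to aggresomes, were not well above background on any array. Aipl1, whose protein binds FAT10, and Lrrfip2, a FAT10 substrate, missed the filter too.

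Nub1 stood at 1.12 and 0.84 in WT, against 1.34 and 1.30 in IKKb(EE)IEC (difference 0.34 ± 0.18, adjusted p by limma = 0.224). Its WT arrays lay 0.28 apart in the opposite sense to Ubd. Psmd4, the proteasome subunit that docks FAT10 and ubiquitin, had a difference of -0.10 ± 0.20, and Sqstm1, the autophagy receptor p62, one of -0.24 ± 0.16. The segregase gene Vcp (0.73 ± 0.19, adjusted p by limma = 0.058), the spindle checkpoint gene Mad2l1 (-0.33 ± 0.27) and the replication clamp gene Pcna (-0.52 ± 0.21) did not pass. Neither did Uba1, the E1 enzyme of ubiquitin (-0.63 ± 0.18, adjusted p by limma = 0.0661).

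The member that rose was Junb, an AP-1 subunit and a reported target of FAT10, at 6.04 and 5.68 in WT, against 6.75 and 6.71 in IKKb(EE)IEC (difference 0.87 ± 0.20, adjusted p by limma = 0.0431). This call ended on leaving out either array of IKKb(EE)IEC (adjusted p = 0.28 without replicate 1 and 0.295 without replicate 2). The count for the whole list moved between 0 and 9 of 14 when 1 array was left out, with 9 called without WT replicate 1, 4 without WT replicate 2 and 0 without either IKKb(EE)IEC array. The share of all genes called moved too, from 49.6% without WT replicate 1 and 33.6% without WT replicate 2 to 1.99% and 2.66% without IKKb(EE)IEC replicate 1 and 2. At an unadjusted p below 0.05, 4 of the 14 members passed with all arrays in the fit, beside 4746 of all 12444 genes.

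Few genes of the wider protein family passed the test. Of 40 genes for ubiquitin, the other ubiquitin-like modifiers and their E1 and dedicated E2 enzymes, 36 were measured on all arrays, 3 rose, none fell and 33 did not pass (8.33% called, against 15.2% of all genes). Their median log2 difference was -0.21, beside -0.12 over all genes. Without WT replicate 1 the count was 14, of which 11 were falls, in a setting that called 49.6% of all genes. Without WT replicate 2 it was 6, where 33.6% of all genes were called, and without either IKKb(EE)IEC array it was 1.

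Isg15, which encodes the other inducible modifier with a pair of ubiquitin-like domains, was the clearest of the 3. It stood at 1.92 and 2.10 in WT, against 5.06 and 4.76 in IKKb(EE)IEC, so that both groups were tight and far apart (2.91 ± 0.19, adjusted p by limma = 0.00217). Its WT arrays differed by 0.18, compared with 2.97 for Ubd. The gene of its activating enzyme, Uba7, rose from 3.682 and 3.996 to 5.33 and 5.07 (1.36 ± 0.20, adjusted p by limma = 0.017). The gene of its conjugating enzyme, Ube2l6, had overlapping levels of 0.88 and 0.69 in WT, against 0.94 and 0.65 in IKKb(EE)IEC (0.01 ± 0.19).

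The polyubiquitin gene Ubb had a difference of -0.25 ± 0.17 and the ubiquitin fusion gene Rps27a one of -0.29 ± 0.21, and neither passed. Sumo2, Sumo3 and Nedd8 lay between -0.14 and -0.05. The call of Uba7 ended without IKKb(EE)IEC replicate 1 (adjusted p by limma = 0.156) and without replicate 2 (0.102), whereas that of Isg15 was kept in each case.

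**Figure D2:**
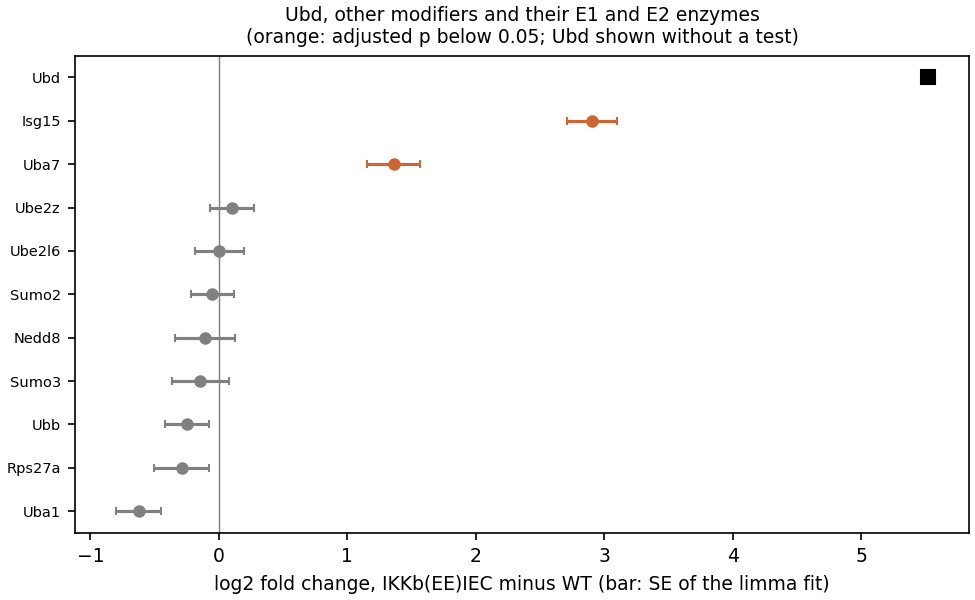
Log2 fold change, IKKb(EE)IEC minus WT, of Ubd (black square, no test) and of the 10 modifier and enzyme genes named in the text (points; bars are the SE of the limma fit, n = 2 arrays per genotype; orange, adjusted p below 0.05). Isg15 and Uba7 lie at 2.91 and 1.36, and the others between -0.63 and 0.10, with Ubd at 5.52.

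Most genes next to Ubd on the chromosome were not above background. Of the 10 protein-coding genes on either side, 18 had a probe and 4 were measured, the others being largely olfactory receptor genes. None of the 4 passed in limma (0 of 4, against 15.2% of all genes). At an unadjusted p below 0.05, 2 of the 4 passed, beside 4746 of all 12444 genes, too few to set against that share. Olfr103 stood at 1.60 and 2.23 in WT, against 1.08 and 0.83 in IKKb(EE)IEC (-0.96 ± 0.26, adjusted p by limma = 0.0606), and Gabbr1, a GABA receptor subunit, had a difference of -0.53 ± 0.18 (adjusted p by limma = 0.0922). The class I-like gene H2-M3 (-0.22 ± 0.18) and Znrd1as (-0.08 ± 0.17) had smaller differences. All 4 values were of opposite sign to that of Ubd. Olfr103 or another neighbour passed under some settings, each time as a fall, and the share of all genes called moved between settings too.

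Readouts of the cytokines that induce Ubd moved in part. Of 36 genes of the TNF and interferon-gamma response, 27 were measured, 14 rose, 1 fell and 12 did not pass, and their median log2 difference was 1.47. That is 55.6% called, against 15.2% of all genes. The list was put together with earlier results of these arrays known, and Icam1, Tnf, Cxcl9 and Cxcl10 passed the filter through the IKKb(EE)IEC arrays alone, so the count is no support for a direction. Ccl20, a chemokine and NF-kB target, stood at -0.33 and 0.14 in WT, against 7.44 and 6.64 in IKKb(EE)IEC (7.14 ± 0.32, adjusted p by limma = 0.000883). Cxcl10 was at least 27.7-fold higher and Icam1, an adhesion molecule, at least 22.7-fold, since neither was well above background in WT. For such a bound the IKKb(EE)IEC mean was set against a floor on each WT array, taken as the dimmest detected probe or as the gene's own value where that was higher.

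Other interferon-gamma targets of the list rose, among them the chemokine gene Cxcl11 (4.31 ± 0.20, adjusted p by limma = 0.000883, above background on 1 WT array) and the GTPase genes Gbp3 (3.05 ± 0.19) and Irgm1 (1.96 ± 0.25). Tap2, a subunit of the peptide transporter for MHC class I, rose by 1.03 ± 0.17 (adjusted p by limma = 0.0211). Genes for the proteasome parts that interferon-gamma induces did not pass the test. Psmb8, Psmb9, Psmb10, Psme1 and Psme2 had differences from -0.21 to 0.12, with overlapping arrays in all but Psmb10. Psmb9 stood at 5.53 and 5.98 in WT, against 5.57 and 5.60 in IKKb(EE)IEC, overlapping levels. Irf1, a transcription factor of the interferon response, had a difference of 0.31 ± 0.17 (adjusted p by limma = 0.241), and Ciita, the switch of MHC class II genes, one of -0.63 ± 0.18. Ido1, an enzyme widely induced by interferon-gamma, fell by 1.08 ± 0.19 (adjusted p by limma = 0.0265). No probe for Ifng itself was well above background on any array.

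The spread of Ubd between the WT arrays was among the widest on the array. WT replicate 2 exceeded replicate 1 by 2.97 on the log2 scale, or 7.84-fold, which placed Ubd at rank 10 of 12436 genes, where the median difference was 0.05. It was 2.54 to 3.63 under the other scalings and the authors' value table. With 1 array on each side this difference has no replicate check.

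Among the 9 genes ranked ahead of Ubd were Mup1, Saa3, Saa2, Reg3g, Sdc3, Mup5, Ceacam10 and Angptl4, with differences of 3.37 to 3.09. They include acute phase genes (Saa2, Saa3) and an antimicrobial lectin (Reg3g). Just behind came Gp1bb, Fabp6, Mup4, Cebpd, Ptprz1, Krtap19-1, Apoc1, Prm1, Pla2g5 and Chac1, at 2.96 to 2.71. WT replicate 1 was not well above background for Saa3, Ceacam10 and Chac1, so that the size of their differences and their ranks are not measured. Of the 43 genes at least 4-fold higher in WT replicate 2 than in replicate 1, Ubd included, 26 were well above background on both WT arrays. Of the 43, 12 separated the genotypes upward and 11 downward, against 28.3% and 40.8% of all genes. Both IKKb(EE)IEC arrays were at least 4-fold above WT replicate 2 in 3 of the 43, namely Ubd itself, C3 and C1qc. The WT signals of C1qc were not well above background, and the share over all genes was not counted.

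Reg3g shows a contrasting course. It stood at 7.81 in WT replicate 1 and 11.07 in WT replicate 2, and at 10.60 and 10.51 in IKKb(EE)IEC, so that WT replicate 2 was above both IKKb(EE)IEC arrays (1.12 ± 0.99, adjusted p by limma = 0.438). Saa2 went from 0.87 and 4.17 in WT to 4.45 and 5.76 in IKKb(EE)IEC, with WT replicate 2 just below the lower of these. Ubd in WT replicate 2 was still 3.91 below the lower IKKb(EE)IEC array.

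In the list of antimicrobial and acute phase genes of inflamed epithelium, 9 of 17 measured genes were at least 2-fold higher in WT replicate 2 than in replicate 1, against 2.43% of all genes. Some of these WT signals were not above background. Among the 15 genes of the list that were well above background on both WT arrays, 7 were at least 2-fold higher in replicate 2, against 1.52% of 10485 such genes, and the median difference was 0.74. Retnlb and Duoxa2 went the other way, by -3.23 and -3.52. In the TNF and interferon-gamma list no gene was at least 2-fold higher in WT replicate 2 and 1, Socs1, was at least 2-fold lower. Nfkbia and Tnfaip3, direct targets of NF-kB that restrain it, differed between the WT arrays by 0.82 and 0.57.

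**Figure D3:**
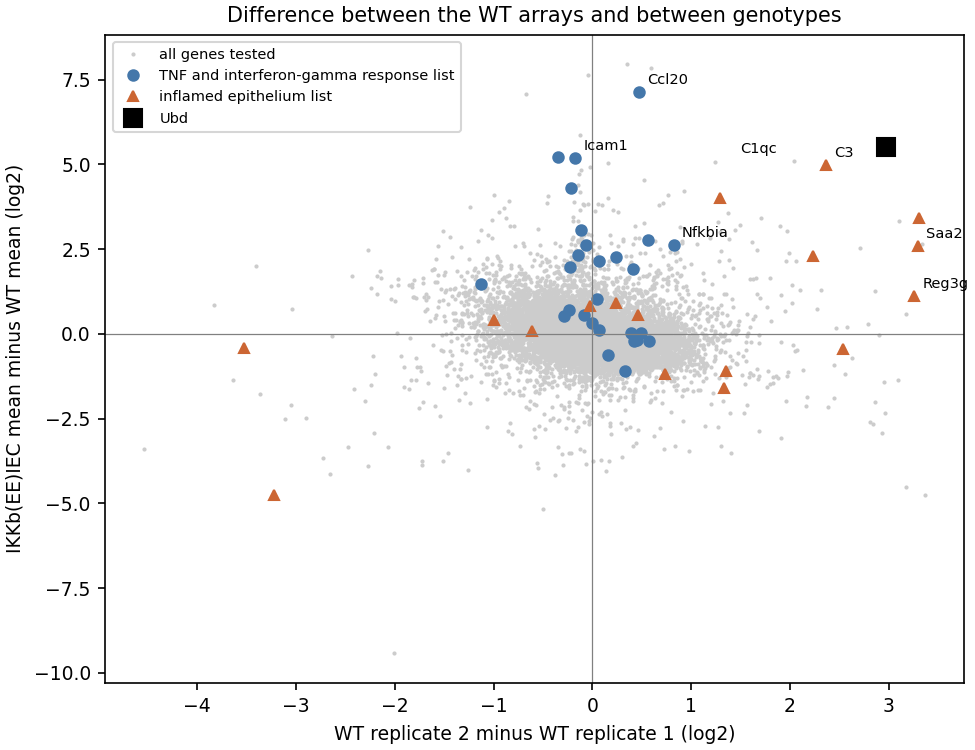
Each point is a gene, with the difference between the WT arrays (replicate 2 minus replicate 1, log2) on the horizontal axis and the difference between genotype means (IKKb(EE)IEC minus WT, log2) on the vertical axis; grey, all genes tested; blue circles, TNF and interferon-gamma list; orange triangles, inflamed epithelium list. Ubd (black square, 2.97 and 5.52) lies to the upper right near C3, whereas Ccl20 (0.47 and 7.14) and Icam1 lie near the vertical line at 0.

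Transcripts of other tissues differed between the WT arrays as well. Of 10 liver genes with a probe, 8 were well above background in WT replicate 2, 1 in WT replicate 1 and 0 in IKKb(EE)IEC, and their summed scaled signal was 39.6 in WT replicate 2, 4.18 in WT replicate 1 and 1.04 to 1.31 in IKKb(EE)IEC. Mup1, the 1 liver gene that passed the filter, was not well above background on either IKKb(EE)IEC array. The part of liver transcripts in the Ubd level of WT replicate 2 was not tested.

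Markers of the blood cells known to carry Ubd were detected in part. Of 11 B cell markers, 4 were well above background on each WT array and 3 on each IKKb(EE)IEC array, and 7, among them Cd79a, Ms4a1 and Pax5, were not above background on any array. Their summed scaled signal was 17.9 to 20.4 in WT and 28.0 to 33.7 in IKKb(EE)IEC. This linear sum is weighted to its brightest gene on every array, Blnk, and does not measure the amount of B cells. Of the measured B cell markers Blnk rose (0.92 ± 0.20), Cr2 and Blk fell (-0.86 ± 0.20 for Cr2, and Blk not well above background in IKKb(EE)IEC), and Cd79b had a difference of -0.06 ± 0.22. That is 3 of 4 called, too few to set against the 15.2% of all genes. The part of B cells in the Ubd level was not tested. The calls of Blnk and Cr2 ended on leaving out either array of IKKb(EE)IEC, and that of Blk without replicate 2.

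Of 12 dendritic cell markers, 5 and 6 were well above background on the WT arrays and 6 on both IKKb(EE)IEC arrays, with a summed signal of 7.43 to 9.38 in WT and 7.34 to 8.92 in IKKb(EE)IEC. The maturation markers Ccr7, Fscn1, Ccl22, Cd80 and Cd86 were not above background on any array, and Cd83 and Lamp3 had differences of -0.15 ± 0.28 and 0.27 ± 0.21. Of 6 measured, 1 was called (16.7%, against 15.2% of all genes). Itgax, the integrin CD11c, rose by 1.89 ± 0.40 (adjusted p by limma = 0.0387), a call that ended without either IKKb(EE)IEC array. Flt3 (-0.79 ± 0.26), Xcr1 (-0.67 ± 0.24) and Zbtb46 (-0.45 ± 0.39) had differences of the opposite sign and did not pass. The median log2 difference of the list was -0.30.

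Macrophage markers moved with Ubd in part. Of 12, 4 and 5 were well above background on the WT arrays and 10 on both IKKb(EE)IEC arrays, with summed signals of 16.4 to 20.8 and 27.0 to 33.9. Of the 10 measured, 5 rose (C1qc, Fcgr1, Ms4a7, Adgre1 and C1qa), 1 fell and 4 did not pass (60.0% called, against 15.2% of all genes). All but Ms4a7 of the 5 passed the filter through the IKKb(EE)IEC arrays alone. Ms4a7, well above background on 1 WT array, also needed an IKKb(EE)IEC array to pass. The count is thus no support for a direction, and the call of Ms4a7 ended without either IKKb(EE)IEC array. Mrc1 and Cd163 were not above background on any array, and C1qb had a difference of -0.15 ± 0.17. Their part in the rise of Ubd was not tested. T and NK cell markers, with 11 of 16 above background on each WT array and 12 on each IKKb(EE)IEC array, had a summed signal of 122 to 157 in WT and 93.8 to 107 in IKKb(EE)IEC, and 1 of 12 measured was called (8.33%, against 15.2% of all genes). The marker called was Klrb1c, which was not well above background in WT, so that no size of its difference can be given. Its call ended without either IKKb(EE)IEC array. The linear sum of the T and NK list is weighted to its brightest gene, Gzma, which did not pass (-0.56 ± 0.23).

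Epithelium over lymphoid follicles, which includes the antigen-sampling M cells, is another known site of Ubd. Of 18 markers of this epithelium, 13 were measured, 6 rose, none fell and 7 did not pass (46.2% called, against 15.2% of all genes). Ccl20, the chemokine gene Cxcl16 (3.82 ± 0.16) and the protease gene Ctsh (2.75 ± 0.19) rose from levels above background in WT. Anxa5, Prnp and Lamb3 were not well above background in WT and passed the filter through the IKKb(EE)IEC arrays alone, so that the count is no support for a direction. The lower bound of the rise was 3.19-fold for Anxa5, 3.99-fold for Prnp and 4.86-fold for Lamb3, and the calls of Prnp and Lamb3 ended without IKKb(EE)IEC replicate 1, that of Lamb3 also without replicate 2. The defining M cell genes Gp2, Spib and Sox8 were not above background on any array. The summed signal of the list was 82.2 to 104 in WT and 554 to 676 in IKKb(EE)IEC. This linear sum is weighted to its brightest genes, Ctsh on all arrays and also Ccl20 in IKKb(EE)IEC, and does not measure the amount of this epithelium. The part of this epithelium in the Ubd level was not tested.

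The genes whose course over the 4 arrays was most like that of Ubd were found by the Euclidean distance between log2 profiles, each centred on its own mean. The nearest 10 with a gene symbol were C3, C1qc, Pf4, Ifi44, Nos2, Fut7, Epop, Ccdc184, Saa3 and Dlk1, at distances of 0.70 to 2.25 and with Pearson r of 0.93 to 1.00 over 4 arrays, too few for a test. Since profiles with a large rise are near by construction, these are a description.

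C3, the central complement component, was nearest. It stood at 1.30 and 3.67 in WT, against 7.66 and 7.27 in IKKb(EE)IEC, so that it shared with Ubd the low first and intermediate second WT array and the close IKKb(EE)IEC pair. Its difference between genotypes was 4.98 ± 0.74 (adjusted p by limma = 0.0168, and 0.0641 without IKKb(EE)IEC replicate 1) and that between the WT arrays 2.36. C1qc, a chain of complement C1q made by macrophages, stood at -3.26 and -1.22 in WT, against 3.04 and 2.68 in IKKb(EE)IEC. Neither of its WT values was well above background, so that the order of the WT arrays is not measured for it, and its rise was at least 17.4-fold.

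The same limit applies to Pf4, Ifi44, Nos2, Epop, Ccdc184 and Dlk1, whose WT signals were not well above background on either array. Their rises were at least 15.4-fold for the platelet chemokine gene Pf4, 14.5-fold for the interferon-induced gene Ifi44, 10.2-fold for Nos2, the inducible nitric oxide synthase, 18.6-fold for Epop, 5.28-fold for Ccdc184 and 12.1-fold for Dlk1. Saa3 was measured on 1 of the WT arrays, at 0.60 in replicate 2, and reached 2.03 and 2.73 in IKKb(EE)IEC (3.43 ± 1.03, adjusted p by limma = 0.0757). Fut7, a fucosyltransferase that makes selectin ligands, was likewise measured on 1 WT array. Among these 10, C3 alone was thus well above background on all arrays. In their promoters, available for 8 of the 10, the loose NF-kB motif was found in 2 (C3 and C1qc) and the narrower form in none.

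**Figure D4:**
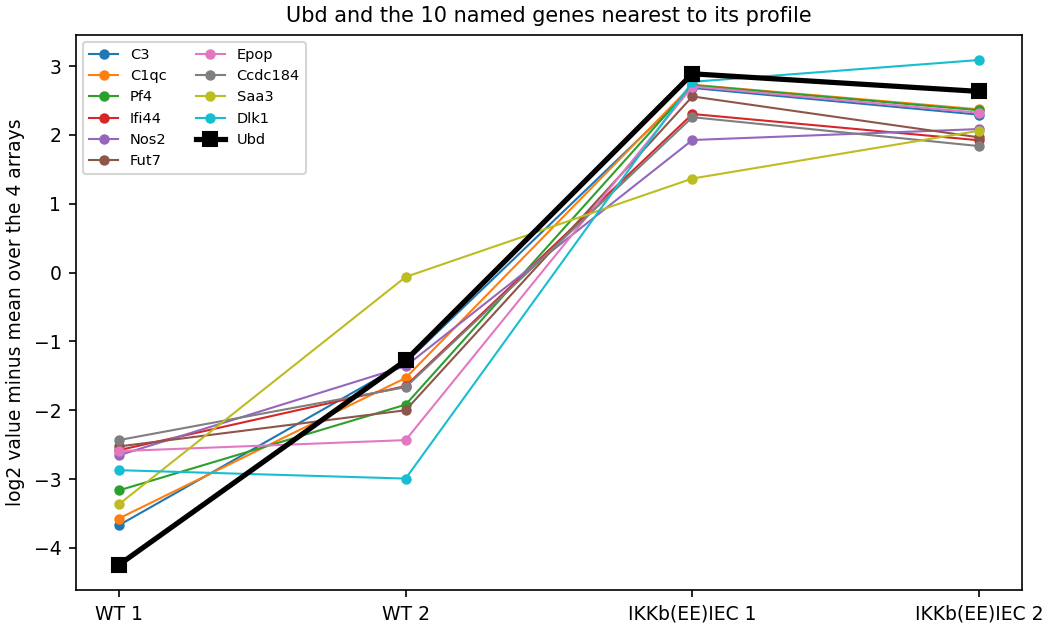
Normalized log2 values of Ubd (black) and of the 10 named genes nearest to it, each minus its mean over the 4 arrays; lines join the arrays of 1 gene and carry no order. Ubd and C3, well above background on all arrays, have a second WT point 2.97 and 2.36 above the first; WT points of the other genes include signals not well above background, whose order is not measured.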

How the data were processed

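Cy3-labelled cRNA was prepared from 250 ng of total RNA per sample, and each of the 4 samples was hybridised to 1 Agilent 014868 array, per the labels' protocols and the file headers. The authors deposited spot intensities from Agilent Feature Extraction 9.5.3.1, background-subtracted and detrended but not scaled between arrays, per the file headers. They also deposited a value table of linear intensities whose scaling between arrays is not stated. It was used as an alternative. The remaining deposited columns used, flags and pixel numbers, are defined by the file headers.

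From the log2 processed signal of each array its own 75th percentile was subtracted (60.3 and 66.1 in WT, 94.6 and 107.8 in IKKb(EE)IEC). Non-uniform spots (1 to 7 per array) were left out and spots of a probe averaged. A probe was called well above background where the flag held for at least 50% of its spots. Probes well above background on at least 2 arrays were kept, and the probe with the highest mean stood for a gene. Of 41174 probes, 24375 were named through RefSeq accessions (GRCm38.p6), 4648 through another probe of the same name and 12151 kept the file's name. Genotypes were compared with limma 3.58.1 in R 4.3.3 (lmFit and eBayes, two-sided, Benjamini-Hochberg over 12444 genes, adjusted p below 0.05), tested first on simulated data. With 2 arrays per genotype no permutation test can pass. Arrays hold no counts, and their number limits the precision. The replicate numbers pair nothing in the labels. Alternatives were other scalings, background corrections, filters, probe rules, a moderated trend, a replicate block and leaving out each array.

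Ubd, the 12 gene lists, the neighbours and the naming rule were chosen with earlier results of these data known. The text names Ubd, called FAT10 partners with Uba6, Ube2z, Nub1 and Isg15, up to 4 called members per list, the 10 nearest profiles and the genes beside Ubd in the WT difference. Further members named were chosen after their values were seen. Some genes covered by these rules are not reported here by name.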

Additional observations from a re-analysis of the deposited data

How the results depend on the processing

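Ubd was higher in IKKb(EE)IEC in every scaling, probe and leave-one-out setting tried, with log2 differences of 4.04 to 7.01 when 1 array was left out, 5.28 to 5.85 otherwise, and 5.52 with the replicate block. WT replicate 2 exceeded replicate 1 by 2.54 to 3.63, and the order within the IKKb(EE)IEC pair turned under median scaling. Counts over all genes were less stable. Leaving out 1 array gave 165 to 2633 higher and 83 to 3541 lower genes, and no filter gave 504 and 346. The repaired normexp correction, added after seeing the data, gave 551 lower genes. Plain normexp gave 0 higher and 0 lower genes (172 at an unadjusted p below 0.05) and 0 calls in the FAT10, modifier and TNF lists (0, 1 and 7 unadjusted). With the replicate block 588 genes were lower and 0 FAT10 genes were called (6 unadjusted). The replicate numbers correlated at 0.11 in their deviations and are not known to pair samples. FAT10 genes called were 2 with median scaling, the authors' value table, probes well above background on all arrays or a moderated trend, 4 with repaired normexp, 0 without a filter or with the mean of probes (5 unadjusted each), and 0 to 9 with 1 array left out. The modifier count was 1 to 14 with 1 array left out. Neighbours called were 1 with median scaling, with probes above background on all arrays or with a trend, and 0 to 2 with 1 array left out. Some genes other than Ubd changed sign. Ube2z was at -0.024 with repaired normexp and Pla2g5 at -0.22 with normexp. Without 1 WT array, Reg3g ranged from -0.51 to 2.74, Sdc3 from -0.99 to 2.19, Ptprz1 from -0.16 to 2.71, Pla2g5 from -1.10 to 1.69, Angptl4 from -2.91 to 0.18 and Fabp6 from -2.88 to 0.067. Cebpd gave 0.011, 0.025 and 0.12 with median, quantile and repaired normexp scaling, 0.39 without IKKb(EE)IEC replicate 1, and -1.49 to 1.41 without 1 array. The cause was not tested.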
